A study of Homo sapiens with 2 samples.

Results

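The genes described here were 9 genes of antigen presentation: HLA-B, HLA-C, B2M, TAP1 and NLRC5 of the class I pathway, and CIITA, HLA-DRA, HLA-DPB1 and HLA-DMA of the class II pathway. They were taken by name, without use of their methylation, from the 20090 protein-coding genes that the GENCODE release 44 annotation places on hg19. Earlier results of these data were known when they were chosen. A locus ran from 1500 bp upstream of the gene's transcript starts to the gene end, and a CpG cytosine was used where both libraries had at least 5 reads. Of the 9 genes, 3 had such shared sites (B2M, NLRC5 and CIITA), with 309 of the 3168726 shared sites of the data. The 6 genes on chromosome 6 had 0 shared sites, so no difference between the libraries could be given for them. In the 3 measured genes the clearest difference lay at the start of CIITA, which was unmethylated in SKNO-1 and methylated in part in SKNO1-siAE.

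Nucleated cells display peptides from their own cytosol on class I molecules, which consist of a heavy chain such as HLA-B or HLA-C and the light chain B2M, and which receive peptides through the TAP transporter. Class II molecules display peptides from endosomes on B cells, dendritic cells and monocytes, and leukemia cells of myeloid origin can carry them too. CIITA and NLRC5 are related transactivators that do not bind DNA themselves but are recruited by factors on the X and Y boxes of class II and class I promoters, respectively, and CIITA is the switch that decides whether class II genes are transcribed.

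The MCC-Seq assay converts unmethylated cytosines with bisulfite and captures CpG-rich regions of the converted DNA. There was 1 library of SKNO-1, a t(8;21) acute myeloid leukemia cell line with the RUNX1-RUNX1T1 fusion (AML1-ETO), and 1 library of SKNO1-siAE, its derivative, in which siAGF1, a small interfering RNA to the junction of the AML1-ETO transcript, was delivered by lentivirus to silence the fusion. The lines shared the same culture medium. Neither whether SKNO1-siAE was a clone or a pool nor a control virus for SKNO-1 is given in the sources used here, so silencing, the vector, selection of cells and time in culture cannot be told apart in any difference given. Without replicates, a test on reads compares these 2 libraries and not the conditions. The intervals given are 95% Wilson intervals that cover counting error only. Where no read was methylated, the upper limit given is 3 divided by the number of reads. Reads were without molecular identifiers, and neighbouring sites on the same reads were counted separately. Intervals and upper limits can therefore be narrower than the number of DNA molecules would allow.

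The SKNO-1 library held 83620068 site reads over 4713346 CpG cytosines and the SKNO1-siAE library 82164216 over 4694016, with a median depth of 16 and 15 reads at the shared sites. A site's level is the share of its reads that were methylated, and the mean level of all shared sites was 0.587 in SKNO-1 and 0.655 in SKNO1-siAE. Differences are given as SKNO-1 minus SKNO1-siAE. Called sites are those with an adjusted p below 0.05 (2-sided Fisher's exact test, Benjamini-Hochberg over all shared sites) whose levels differed by 0.2 or more. Over all shared sites 4.4% were called higher and 11.7% lower in SKNO-1. At the measured loci of the 9 genes 6 sites (1.94%) were called higher and 31 sites (10.0%) lower, both shares being below those of all sites. Of the 37 calls, 29 were in CIITA. Bonferroni adjustment left 0 sites higher and 6 lower, all 6 in CIITA, and merging strands gave 12 higher and 30 lower.

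Coverage differed widely between the 9 loci. B2M, on chromosome 15, was the best covered, with 135 of its 296 CpG cytosines (45.6%) read at least 5 times in SKNO-1 and 90 (30.4%) in SKNO1-siAE. NLRC5 and CIITA, both on chromosome 16, had 199 and 239 sites in SKNO-1 (8.00% and 9.54% of their CpG cytosines) and 157 and 330 sites in SKNO1-siAE (6.31% and 13.2%). The median protein-coding gene had 14.3% in each library. TAP1, HLA-DRA and HLA-DPB1 had 0 sites in both libraries, out of 500, 162 and 336 CpG cytosines. HLA-B had 75 sites in SKNO-1 (13.9%) and 8 in SKNO1-siAE (1.48%), none of them the same, and HLA-C and HLA-DMA had 26 and 25 sites in SKNO-1 and 0 in SKNO1-siAE. Of all protein-coding genes, 781 (3.89%) had no shared site.

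**Figure D1:**
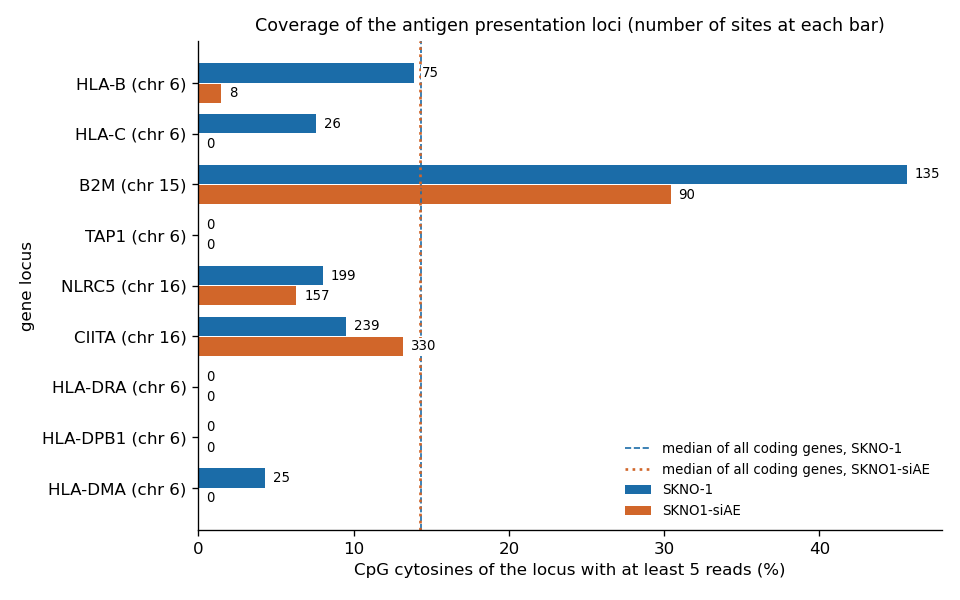
Share of the CpG cytosines of each of the 9 loci with at least 5 reads, in percent, in SKNO-1 (blue) and SKNO1-siAE (orange), with the number of sites at each bar and the median of all protein-coding genes as vertical lines. The 6 loci on chromosome 6 have between 0 and 75 sites, while B2M lies above the medians of 14.3% in both libraries.

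The gap on chromosome 6 extended over the whole interval in which these genes lie. From the start of HLA-F to the end of HLA-DPB1 (chr6:29690552-33057473, hg19) the libraries had 409 and 42 sites and 13 shared sites over 95926 CpG cytosines, or 0.0136%, and 2 of its 138 protein-coding genes had a shared site. Intervals of the same length before and after it, each 1 width away, had shared sites at 10.7% and 5.51% of their CpG cytosines, and chromosome 6 as a whole at 5.65%. In windows of 200 kb, the nearest with at least 100 shared sites were centred 3.9 Mb before and 1.1 Mb after the HLA-DRA start. The reference build hg19 also has alternate sequences of the MHC interval, and the deposited counts named no such sequence. A stretch of chromosome 17 from CRHR1 to KANSL1, for which hg19 also has an alternate sequence, had 631 and 3 sites and 2 shared sites over 13041 CpG cytosines, where chromosome 17 as a whole had shared sites at 8.01%. That stretch was picked after the chromosome 6 values were seen, and the part of the alternate sequences, of polymorphism or of the probe design in these gaps was not tested.

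**Figure D2:**
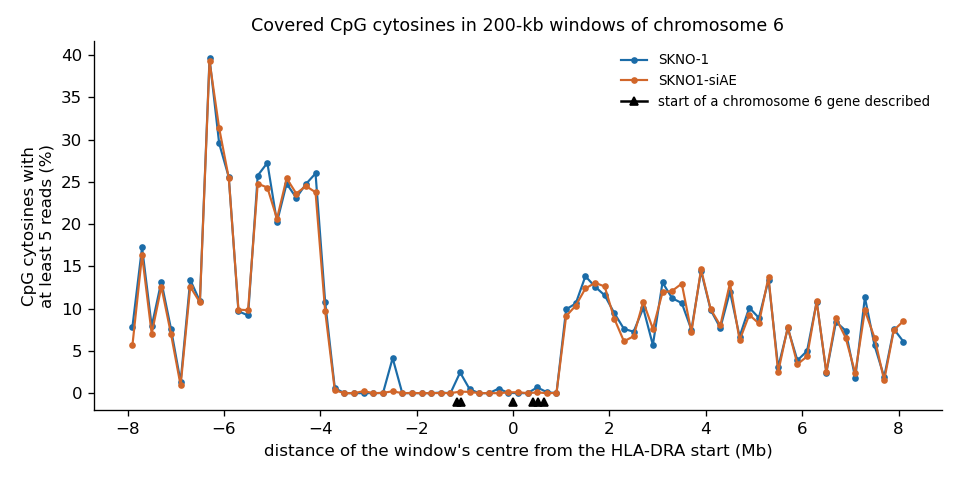
Share of CpG cytosines with at least 5 reads, in percent, in 200-kb windows of chromosome 6 by distance from the HLA-DRA start in Mb, for SKNO-1 (blue) and SKNO1-siAE (orange). Triangles mark the starts of the 6 genes on chromosome 6, all of which lie inside the stretch with almost no sites.

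CIITA, the class II transactivator, had 127 shared sites (chr16:10958579-11036878, + strand). Their levels averaged 0.453 in SKNO-1 and 0.628 in SKNO1-siAE, a difference of -0.175. Of all 19119 genes with at least 5 shared sites, 14.0% had a locus difference at or below this value, 11.7% were lower in SKNO-1 by at least 0.2 and 1.68% were higher by as much. The locus difference of CIITA was past 0.2 with at least 10 reads per site (-0.242) and with reads pooled (-0.241), and smaller with strands merged (-0.106). Sites called lower in SKNO-1 numbered 27 (21.3%) and sites called higher numbered 2 (1.57%). The difference was concentrated near the gene's starts. The 38 sites from 350 bp upstream to 2324 bp downstream of the start of the reference transcript CIITA-201 (position 10971059) had mean levels of 0.0117 in SKNO-1 and 0.577 in SKNO1-siAE, and 24 of them were called lower. The other 89 sites of the locus had mean levels of 0.642 and 0.650, with 3 sites called lower and 2 called higher. The limits of the stretch near the starts are the outer edges of the groups of sites that differed. Its contrast with the other sites is therefore in part built in.

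CIITA is known to be transcribed from separate promoters that serve dendritic cells, B cells and the response to interferon gamma, and the annotation has several protein-coding starts without naming those promoters. The most upstream pair, CIITA-216 and CIITA-215, 10980 and 10942 bp before the reference start, had 0 shared sites within 500 bp. CIITA-201, CIITA-202 and CIITA-214, all of which start within 8 bp of the reference start, shared 19 sites within 500 bp, from -350 to +212 bp. In SKNO-1 these sites had 0 of 264 methylated reads, which allows a share of up to 1.14%, and in SKNO1-siAE they had 294 of 602 (0.488, interval 0.449 to 0.528). The mean site level there was 0 against 0.453, and 10 of the 19 sites were called lower in SKNO-1. SKNO-1 had fewer reads at these sites, with a median depth of 10 against 32. Of the 17014 genes with at least 5 shared sites within 500 bp of their start, 14% were lower in SKNO-1 by at least 0.2, 3.43% were higher by as much, and 6.31% had a difference at or below that of CIITA. CIITA-212, which starts 1767 bp downstream of the reference start, had 17 sites within 500 bp with 0 of 212 methylated reads in SKNO-1, an upper limit of 1.42%, and 187 of 232 in SKNO1-siAE (0.806, interval 0.750 to 0.852). Of these 17 sites, 14 were called lower. CIITA-218, a start 44965 bp into the gene, lay in DNA that was methylated in both libraries, with 56 of 56 and 71 of 72 methylated reads at 8 sites.

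Sequences of CIITA downstream of the reference start are given from the GRCh37 assembly on the + strand, in lower case with every CpG that was read in both libraries in capitals. The stretch after the CIITA-212 exon 1 (chr16:10972900-10972963) is shown as the edge of a difference, since none of its 3 CpGs was called, and the stretch farther downstream in intron 1 (chr16:10973261-10973390) as the one with 5 sites called lower in SKNO-1.
CIITA after the downstream start's exon: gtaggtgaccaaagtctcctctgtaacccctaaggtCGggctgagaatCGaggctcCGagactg
CIITA intron 1 second stretch: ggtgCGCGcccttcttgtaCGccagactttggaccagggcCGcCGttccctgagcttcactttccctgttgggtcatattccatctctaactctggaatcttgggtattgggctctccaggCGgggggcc

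Of the 6 CpGs with shared sites in the 1500 bp upstream of the reference start, the farthest, at -859 bp, was methylated in both libraries and not called, with 14 of 17 reads in SKNO-1 and 7 of 7 in SKNO1-siAE. At the CpG at -350 bp SKNO1-siAE had 12 of 21 methylated reads against 0 of 11 in SKNO-1, and at -286 bp 13 of 36 against 0 of 27, both called. The CpGs closer to the start were not called. At -258 bp SKNO1-siAE had 0 of 42 and at -99 bp 0 of 30 on the + strand and 3 of 17 on the - strand, where SKNO-1 had 0 of 27, 0 of 26 and 0 of 10. At -24 bp the reads were 4 of 26 and 0 of 21 on the + strand. Across the end of exon 1 the reads of SKNO1-siAE at +132 bp were all methylated, 35 of 35 against 0 of 14. The CpG at +147 bp was the site of CIITA with the smallest p, with 38 of 41 methylated reads in SKNO1-siAE and 0 of 21 in SKNO-1 (adjusted p = 1.13e-11, Fisher's exact test). At +191 and +212 bp SKNO1-siAE had 15 of 40 and 16 of 32 methylated reads. Every one of the 31 shared sites from -350 to +1898 bp had 0 methylated reads in SKNO-1, 0 of 446 in all, which allows a share of up to 0.673%. In SKNO1-siAE these sites ranged from 0 to fully methylated. At the CpG at +96 bp SKNO1-siAE had 15 of 29 methylated reads on the + strand and 35 of 35 on the - strand. Over CpGs of CIITA read on both strands, the strands differed by 0.5 or more at 3 of 40 in SKNO-1 (7.5%). In SKNO1-siAE they did so at 5 of 78 (6.41%), and over the genome the shares were 5.73% and 5.19%.

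**Figure D3:**
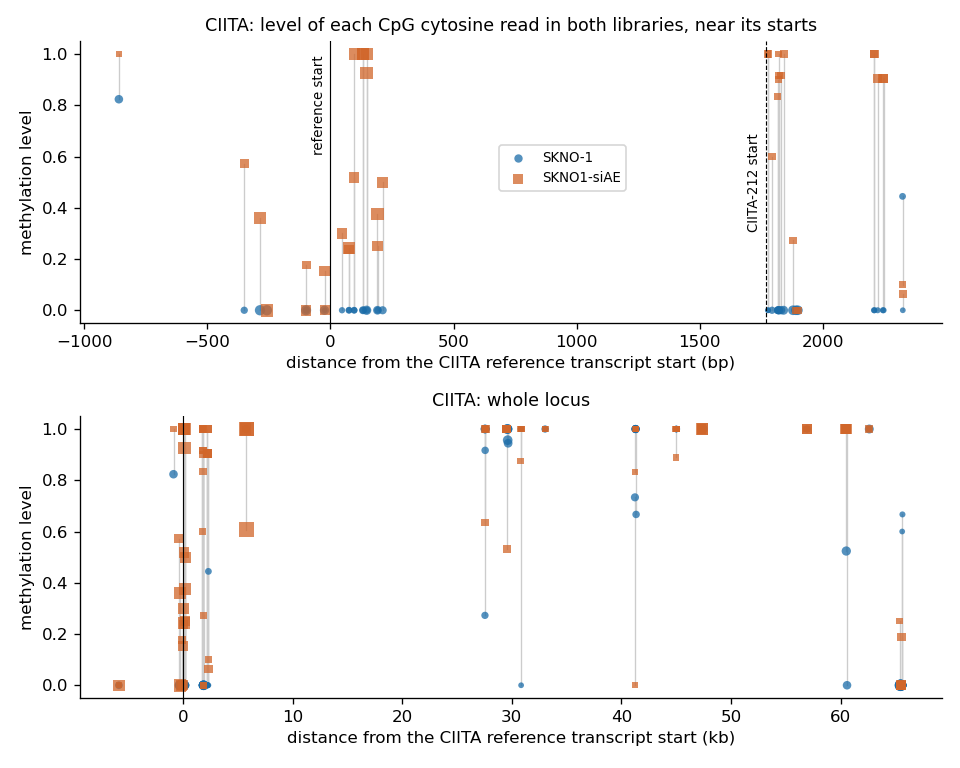
Methylation level of each CpG cytosine of CIITA read in both libraries, by distance from the reference start (solid line), near the starts in bp (top) and over the locus in kb (bottom). Blue circles are SKNO-1 and orange squares SKNO1-siAE, larger with more reads, and a grey line joins the levels of a site. SKNO-1 lies at 0 at every site from -350 to +1898 bp, while SKNO1-siAE reaches 1 both after the reference start and after the CIITA-212 start (dashed).

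Runs of neighbouring sites that differed by 0.2 or more, called candidate regions here, numbered 3 at CIITA, all lower in SKNO-1. From +75 to +212 bp (chr16:10971134-10971271, 11 sites) SKNO-1 had 0 of 130 methylated reads and SKNO1-siAE 253 of 376, a mean difference of -0.641. From +1776 to +1890 bp, in exon 1 of CIITA-212 and just after it (chr16:10972835-10972949, 11 sites), 0 of 159 reads were methylated against 92 of 120, a difference of -0.767. Within this region the level of SKNO1-siAE dropped from 14 of 14 methylated reads at +1840 bp to 3 of 11 at +1878 bp and 0 of 11 at +1890 bp, the last CpGs lying in the printed sequence after the CIITA-212 exon. From +2207 to +2324 bp (chr16:10973266-10973383, 7 sites) 4 of 44 reads were methylated against 97 of 127, a difference of -0.633. Its last CpG, at the end of the printed sequence, did not pass the test, with 4 of 9 methylated reads on the + strand in SKNO-1 and 1 of 10 in SKNO1-siAE.

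Farther into CIITA the levels of both libraries were mostly high. The 7 sites from +5690 to +5844 bp had mean levels of 1 in SKNO-1 and 0.944 in SKNO1-siAE, and the 10 sites from +29512 to +29666 bp 0.990 and 0.953. At the end of the locus, 27 sites near the start of DEXI, a gene that runs in the opposite direction, had mean levels of 0.0469 and 0.0162. Of the calls outside the starts, the 1 with the smallest p among the sites higher in SKNO-1 was at +41234 bp, with 11 of 15 methylated reads against 0 of 6 (adjusted p = 0.0262, Fisher's exact test). The sites at +60514 and +60581 bp were called lower, and at +60581 bp the reads were 0 of 17 in SKNO-1 and 14 of 14 in SKNO1-siAE.

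By the interval used in the study for promoters, 1500 bp upstream of the start, CIITA had 8 shared sites with mean levels of 0.103 in SKNO-1 and 0.283 in SKNO1-siAE, a difference of -0.180. This interval leaves out the sites after the start, where most of the calls lay. With each library's own sites the difference turned to 0.237. Read at this depth in SKNO-1 only were 6 sites from -1114 to -576 bp, with 51 of 56 methylated reads. Read in SKNO1-siAE only were 2 sites from -285 to -257 bp, with 0 of 12. With reads pooled the difference was -0.0949.

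NLRC5, the class I transactivator, had 106 shared sites (chr16:57021897-57117443, + strand) with mean levels of 0.553 in SKNO-1 and 0.545 in SKNO1-siAE, a difference of 0.00795 that turned to -0.126 with each library's own sites and to -0.0210 with strands merged. Of these, 3 sites (2.83%) were called higher and 4 (3.77%) lower in SKNO-1. The start itself was unmethylated in both libraries. At the 11 sites from -151 to -50 bp neither library had a methylated read. Over the 46 sites within 500 bp of the start of the reference transcript NLRC5-229 (position 57023469), the same sites as for NLRC5-201, which starts 59 bp upstream, the mean levels were 0.0611 and 0.101, with 16 of 622 and 67 of 628 methylated reads. The sequences shown are the edge where the libraries differed (chr16:57023004-57023223) and a stretch of intron 1 that differed in the other direction (chr16:57033963-57034048), from GRCh37 on the + strand with the CpGs read in both libraries in capitals.
NLRC5 upstream: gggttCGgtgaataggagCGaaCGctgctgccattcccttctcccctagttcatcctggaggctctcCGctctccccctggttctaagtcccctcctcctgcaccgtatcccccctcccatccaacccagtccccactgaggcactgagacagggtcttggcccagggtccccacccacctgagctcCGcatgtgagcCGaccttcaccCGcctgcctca
NLRC5 intron 1: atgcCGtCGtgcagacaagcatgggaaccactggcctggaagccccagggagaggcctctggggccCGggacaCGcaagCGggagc

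In the upstream sequence 5 sites from -443 to -256 bp (chr16:57023026-57023213) formed a candidate region with mean levels of 0.2 in SKNO-1 and 0.603 in SKNO1-siAE, with 5 of 45 and 45 of 70 methylated reads. All 5 methylated reads of SKNO-1 were at -398 bp, where the libraries had 5 of 5 and 8 of 14, which was not called and ran against the rest of the region. The site with the smallest p, at -278 bp, had 0 of 12 methylated reads in SKNO-1 and 14 of 18 in SKNO1-siAE (adjusted p = 0.000317, Fisher's exact test), and at -267 bp the reads were 0 of 12 and 8 of 11. The CpG closest to the start in this region, at -256 bp, had 0 of 10 and 0 of 11. Over the 1500 bp upstream, 20 sites had mean levels of 0.233 and 0.333, a difference of -0.0992, and -0.196 with reads pooled.

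In the intron 1 sequence the order was the opposite. The 9 sites from +10499 to +10574 bp (chr16:57033968-57034043) had mean levels of 0.991 in SKNO-1, with 95 of 96 methylated reads, and 0.576 in SKNO1-siAE, with 110 of 177, a difference of 0.415. The largest difference was at +10560 bp on the + strand, with 9 of 9 methylated reads in SKNO-1 and 0 of 11 in SKNO1-siAE (adjusted p = 0.000101, Fisher's exact test). On the - strand of the same CpG the reads were 11 of 11 and 17 of 25, which did not pass the test. Over CpGs read on both strands of NLRC5, the strands differed by 0.5 or more at 0 of 67 in SKNO-1 and at 2 of 43 in SKNO1-siAE (4.65%), and over the genome at 5.73% and 5.19%. The start of NLRC5-216, 31156 bp into the gene, had 4 sites with 88 of 96 and 77 of 77 methylated reads, and the other downstream starts had fewer than 3 sites.

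Over the 3 measured genes 5 candidate regions were found, 1 higher and 4 lower in SKNO-1. By the Mann-Whitney test across sites with Bonferroni adjustment 0 of the 5 were called, where 4.52% of all candidate regions higher in SKNO-1 and 6.2% of those lower were called. The called region with the fewest sites had 17, and these 5 had between 5 and 11. Regions of that size could not pass after this adjustment even with fully separated levels. The 0 of 5 was thus fixed by their size and is no comparison with those shares. Fisher's exact test on pooled reads, a test added after the data were seen, called all 5, where it called 65% and 72.7% of all candidate regions in the respective directions.

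**Figure D4:**
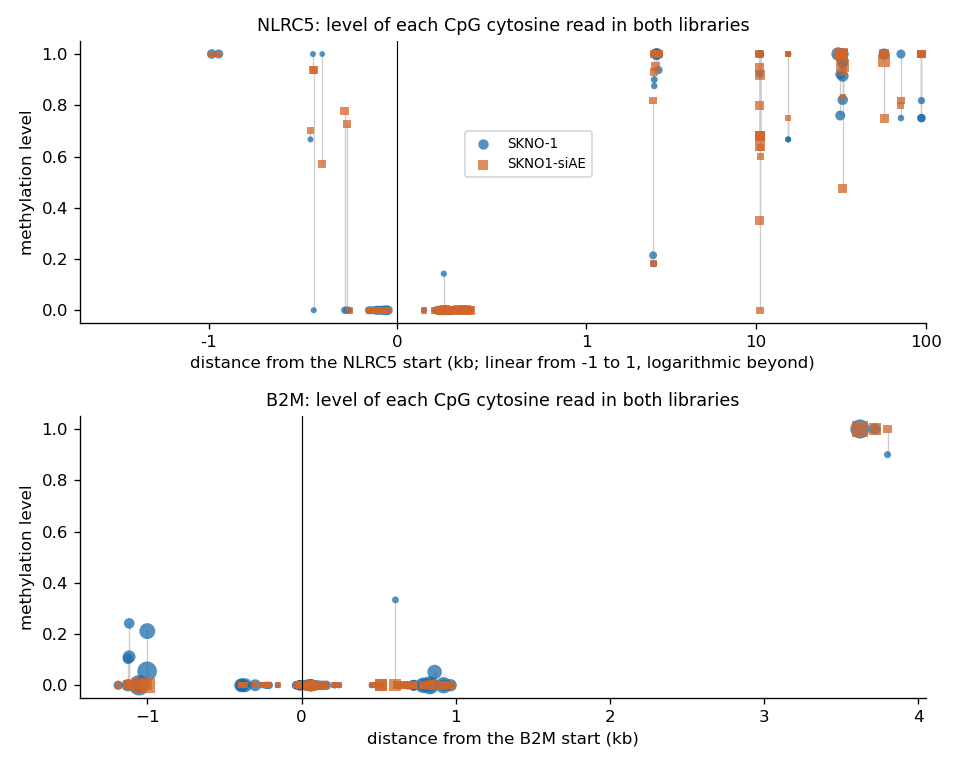
Methylation level of each CpG cytosine of NLRC5 (top, distance axis linear within 1 kb of the start and logarithmic beyond) and B2M (bottom) read in both libraries, by distance from the start in kb. Blue circles are SKNO-1 and orange squares SKNO1-siAE, larger with more reads. Both starts lie at or near 0, and the libraries part at the upstream edge and in intron 1 of NLRC5.

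B2M, the light chain of all class I molecules, had 76 shared sites (chr15:45002056-45011049, + strand) with mean levels of 0.0527 in SKNO-1 and 0.0395 in SKNO1-siAE, a difference of 0.0132. Its start was the most uniform of the 3: over 41 sites within 500 bp of the start (position 45003715), SKNO-1 had 0 of 837 methylated reads and SKNO1-siAE 0 of 399, which allows shares of up to 0.358% and 0.752%. The 3 sites from +3621 to +3800 bp were methylated in both libraries, with 151 of 152 and 116 of 116 reads. The 1 called site, at +609 bp on the - strand, had 3 of 9 methylated reads in SKNO-1 and 0 of 39 in SKNO1-siAE (adjusted p = 0.0317, Fisher's exact test). From -1189 to -1000 bp, 9 sites had 36 of 536 methylated reads in SKNO-1 (0.0672, interval 0.0489 to 0.0916) and 0 of 247 in SKNO1-siAE, without a called site. SKNO-1 had 1.94 times the reads of SKNO1-siAE over the locus. The sequence upstream of the start (chr15:45003522-45003684, GRCh37, + strand) is shown as a promoter that was unmethylated in both libraries. Of its 8 CpGs, 3 were read in both (capitals).
B2M upstream: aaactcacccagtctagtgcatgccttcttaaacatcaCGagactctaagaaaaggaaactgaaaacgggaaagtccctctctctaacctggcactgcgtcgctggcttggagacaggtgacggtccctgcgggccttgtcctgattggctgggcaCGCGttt

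PATL2, which runs in the opposite direction, starts at -194 bp relative to B2M, and 35 shared sites within 500 bp of its start had 0 methylated reads in either library. Reads there cannot be assigned to one gene or the other.

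HLA-B and HLA-C, heavy chains of class I, gave values in 1 library at a time. In SKNO-1 the 75 sites of HLA-B (chr6:31321649-31336344, - strand) fell into an unmethylated and a methylated stretch. From 404 to 602 bp into the gene 22 sites had 0 of 122 methylated reads, which allows a share of up to 2.46%, and from 762 to 1604 bp 53 sites had 416 of 442 (0.941, interval 0.915 to 0.960). The limit of 700 bp between them was set after the levels were seen. The 8 sites of SKNO1-siAE lay elsewhere in the locus: 3 sites from 2189 to 2379 bp into the gene had 33 of 33 methylated reads, and 5 sites from -1076 to -862 bp had 40 of 50. In HLA-C (chr6:31236526-31241407, - strand) the 26 sites of SKNO-1, from 215 to 427 bp into the gene, had 0 of 130 methylated reads, an upper limit of 2.31%, each site with the minimum depth of 5 reads. That limit counts neighbouring CpGs of the same reads separately, so far fewer DNA molecules may lie behind it. Sites of HLA-B in SKNO-1 had 5 to 17 reads, and of its 15 CpGs read on both strands 3 differed by 0.5 or more between the strands. HLA class I genes have near-identical copies and many alleles, so the placement of these reads is uncertain. TAP1, a subunit of the peptide transporter (chr6:32812986-32823093, - strand), and the start of PSMB9, at -488 bp relative to its own, had 0 sites.

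Of the class II genes, HLA-DRA, the alpha chain of HLA-DR (chr6:32406155-32412823, + strand), and HLA-DPB1, the beta chain of HLA-DP (chr6:33042267-33057473, + strand), had 0 sites. HLA-DMA, which helps load peptides onto class II molecules (chr6:32916390-32938371, - strand), had 25 sites, all in SKNO-1. Upstream of its reference start, from -932 to -832 bp, 6 sites had 76 of 124 methylated reads (0.613, interval 0.525 to 0.694). The 2 sites from 2895 to 3072 bp into the gene had 10 of 10. The other 17 sites, with 0 of 134 methylated reads, lay more than 17 kb upstream, beyond the start of BRD2 on the other strand, which falls inside the HLA-DMA locus because the longer transcript HLA-DMA-204 starts beyond it. None of these sites was among those of SKNO1-siAE, so whether the class II genes themselves differed between the libraries was not measured.

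HLA-DMA is shown by a promoter stretch with letter matches to the boxes through which CIITA is known to act on class II genes. The X1 box consensus and every match of the letters CCAAT, the core of a Y box, are in capitals. Whether CIITA acts through this stretch in these cells was not measured. CCAAT reads as ATTGG on the gene's strand and matched at -79 and -49 bp, and which of these matches acts as a Y box was not tested. The stretch runs from -122 to -45 bp of HLA-DMA (chr6:32920919-32920996, - strand, GRCh37), 5′ to 3′ along the gene.
HLA-DMA X and Y boxes: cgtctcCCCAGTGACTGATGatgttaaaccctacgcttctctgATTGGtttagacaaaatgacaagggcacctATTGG

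The stretch holds 2 CpGs, and neither was read at this depth in either library. Searched on both strands from 250 bp before to 50 bp after the start, the X1 box consensus occurred in 14 of 20090 promoters (0.0697%), among them those of HLA-DRA, HLA-DMA and, of the wider pathway, HLA-DMB and HLA-DQB1. CCAAT occurred in 7 of the 9 promoters, all but those of CIITA and NLRC5, and in 35.9% of all. The core of an interferon-stimulated response element (pairs of GAAA spaced by NN) occurred in B2M, TAP1, NLRC5 and CIITA and in 3.33% of all promoters. TGTGGT, the core letters bound by RUNX factors, occurred in 1 of the 9, that of CIITA, and in 10.8% of all. GGGCGG occurred in HLA-C, TAP1 and NLRC5 and in 61.0% of all, and TTCNNNGAA in none of the 9 and in 6.51% of all. A match of letters is a description and not a bound site. The 300-bp windows at the reference starts of CIITA, HLA-DRA, HLA-DPB1 and HLA-DMA held between 2 and 4 CpGs, against a median of 23 over all promoters, while those of the class I genes B2M, TAP1, HLA-B, HLA-C and NLRC5 held between 19 and 27. The window at the CIITA-212 start held 14.

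The other genes of the pathway were taken from a list of 45, of which 20 lie on chromosome 6. The 18 genes without a shared site were all on chromosome 6, among them TAP2, PSMB8, HLA-DRB1 and HLA-DQA1. Of the 26 genes with at least 5 shared sites in the 1500 bp upstream, 2 were higher by at least 0.2 in SKNO-1 and 2 lower, where 3.81% and 15% of all 17287 genes were, and the median difference was -0.00319 against -0.00808 over all genes. CD74, the invariant chain that escorts class II molecules and is itself a target of CIITA, was lower in SKNO-1, at 0.561 against 0.899 over 16 sites. PSME1, a subunit of the interferon-induced proteasome activator, was lower, at 0.198 against 0.492 over 32 sites. IFNGR2, a chain of the interferon gamma receptor, was higher, at 0.237 against 0.00603 over 51 sites, and NFYC, a subunit of the factor that binds CCAAT, at 0.218 against 0.00946 over 36 sites. With at least 10 reads per site, 1 gene of the list was higher by 0.2, not 2. Closer to the start, within 500 bp, the differences of 3 of these genes were smaller, with mean levels of 0.0222 and 0 in IFNGR2, 0.0127 and 0.000794 in NFYC and 0.0882 and 0.159 in PSME1.

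Within 500 bp of the start, 22 of the 26 genes of the list with at least 5 shared sites (84.6%) had mean levels of at most 0.1 in both libraries, where 48.9% of all 17014 genes did. The 22 included the interferon pathway genes IRF1, JAK1 and JAK2 and the X box factors RFX5, RFXAP and RFXANK. CD74 was the exception that differed most, with 92 of 746 methylated reads in SKNO-1 and 620 of 674 in SKNO1-siAE, mean levels of 0.123 and 0.923 and 28 of 30 sites called lower. It was the 1 gene of the 26 that was lower by at least 0.2 in this window, and 0 were higher, where 14% of all genes were lower and 3.43% higher. LGMN, an endosomal protease, was methylated in both libraries at 0.983 and 0.947.

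**Figure D5:**
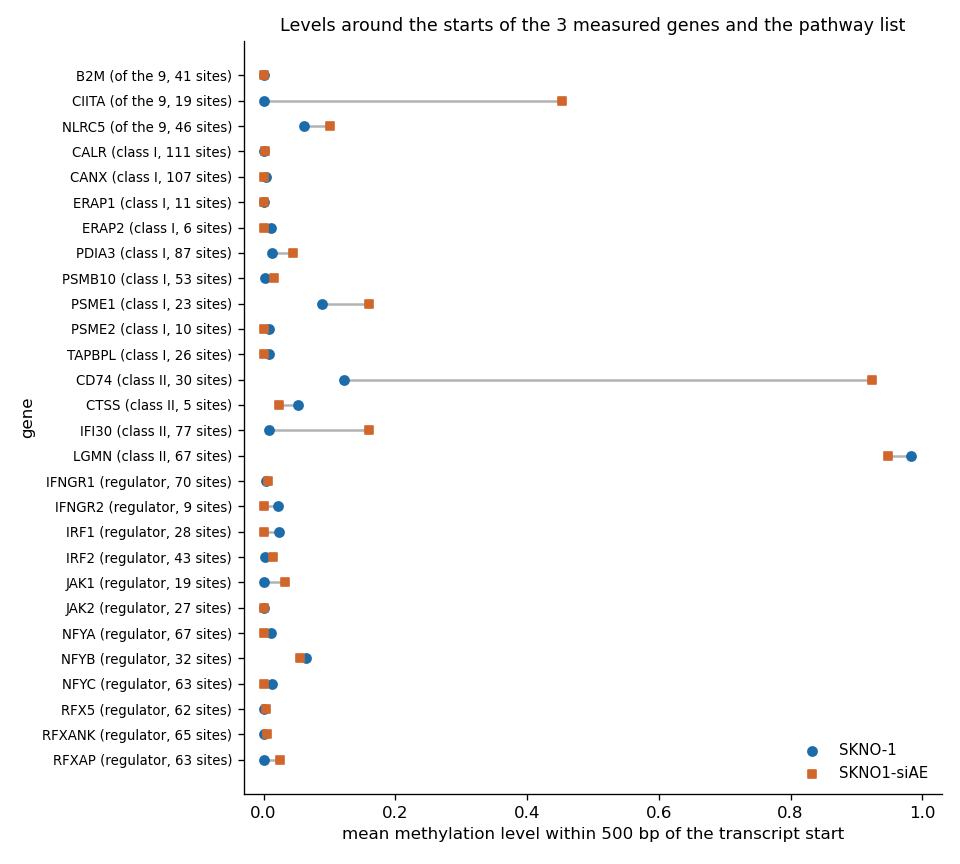
Mean methylation level within 500 bp of the transcript start of the 3 measured genes of the 9 (top) and of the genes of the pathway list with at least 5 shared sites that are named here, with the number of sites in brackets. Blue circles are SKNO-1 and orange squares SKNO1-siAE. Most genes lie near 0 in both libraries, and CIITA and CD74 have the widest gaps, both lower in SKNO-1.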

How the data were processed

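Genomic DNA of 1 SKNO-1 and 1 SKNO1-siAE sample was bisulfite-converted, captured with Roche NimbleGen SeqCap Epi probes and sequenced. The submitters' processing notes name cutadapt 1.4.2, BSMAP 2.73 and hg19. The authors deposited raw counts of methylated and unmethylated reads for each CpG cytosine and strand, at sites with at least 5 reads. Beyond the use of unique sequences, the handling of reads that align to several places, which can affect the HLA genes, is not given in the sources used here. All 9403887 positions on chromosomes 1 to 22 and X were CpG cytosines of GRCh37. The mitochondrial sites, read at 0.351% and 0.378% methylated, give an upper bound on unconverted cytosine there.

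Genes were placed with GENCODE release 44 lifted to GRCh37. Levels were methylated over all reads per site, and the level of a locus, promoter or start as the mean over its shared sites. Sites were tested with a 2-sided Fisher's exact test with Benjamini-Hochberg adjustment over the 3168726 shared sites. Candidate regions joined 5 or more sites with gaps of up to 300 bp and a difference, smoothed over 5 sites, of at least 0.2, and were tested with a Mann-Whitney U test with Bonferroni adjustment. Tests across sites use neighbouring sites that share reads and only rank regions. Genes and gene groups with no test are described beside all protein-coding genes. Site and region calls were checked on reads simulated for chromosome 16.

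The 9 genes, the pathway list and the tests were chosen with earlier results of these data known. The text names all 9 genes, at each locus the candidate regions with the largest differences and the site with the smallest p in each direction, every protein-coding start of CIITA and NLRC5 with at least 3 shared sites within 500 bp, and pathway genes past 0.2 upstream of the start; other sites, and pathway genes named for their level around the start, were picked after their values were seen. Some genes counted in the pathway list and some promoter sequences are not reported here. The alternatives were at least 10 reads, merged strands, pooled reads, each library's own sites, sites over the 99th percentile of depth left out, other promoter windows, Bonferroni adjustment, other minimum differences and other rules for regions. Software was numba 0.67.0, pandas 2.3.3, scipy 1.17.1, numpy 2.4.6 and matplotlib 3.10.9 under python 3.11.15.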

Additional observations from a re-analysis of the deposited data

How the results depend on the processing

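There was 1 library per cell line, so none was left out, and the depth (medians of 16 and 15 reads per site) limits the level of a single site. No paired analysis was possible because there was 1 library per cell line, which leaves no residual between pairs. Of 67 alternative values 41 stayed within counting error of the value reported, or within 1.5 times a count, and 26 moved. In 7 of the 67 the difference changed sign: the locus difference of B2M with reads pooled, that of NLRC5 with strands merged and with own sites, the median of the 3 genes in all of these settings, and the promoter difference of CIITA with own sites. The cause of these moves was not tested unless stated.

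With at least 10 reads the locus difference of CIITA was -0.242 and the promoter difference of B2M 0.0618, 19 sites were called lower in SKNO-1, and 1 gene of the pathway list was higher by 0.2 upstream of its start. With strands merged, CIITA differed by -0.106, the median of the 3 genes was -0.0210 and 12 sites were called higher. With reads pooled the locus differences were -0.241 for CIITA and -0.0146 for B2M, which was also the median, and the promoter differences -0.0949 for CIITA and -0.196 for NLRC5. With each library's own sites, which need not be the same sites, the locus differences were -0.131 for CIITA and -0.126 for NLRC5, also the median, and the promoter difference of CIITA was 0.237. Within 500 bp of the start the differences were -0.453 for CIITA and 0 for B2M, and the pathway list had 0 genes higher and 1 lower. Leaving out the deepest sites and joining the windows upstream of every coding start moved no value. Bonferroni adjustment left 0 sites higher and 6 lower of the 6 and 31 called with Benjamini-Hochberg adjustment of Fisher's exact test. By size alone, and by Fisher's exact test on pooled reads, which was chosen after seeing the data, 1 region was higher and 4 were lower. The Mann-Whitney test called 0 in each direction, also with at least 10 reads, with at least 10 sites and with smoothing over 3 sites. The candidate regions reported for these genes have too few sites to pass it after Bonferroni adjustment. The repeated 0 is therefore no measure of stability, though it counts among the values that stayed.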
